A study of Mus musculus with 6 samples.

Results

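The genes described here encode spliceosome components and SR proteins. They were chosen by name: every gene whose symbol starts with Srsf, Snrp, Sf3a, Sf3b, U2af or Prpf except Snrpn, a rule that reads symbols and not values. The rule found 43 genes among the 22180 genes of the table, each with a probe set of a single symbol. They were measured on 6 microarrays of mouse acute myeloid leukaemia cells, 3 labelled WT and 3 labelled Evi1 Tg. Both groups were driven by MLL-AF9, a fusion oncogene made from the MLL and AF9 genes, and both are on the C57BL/6J background. Evi1 Tg cells also carried a transgene of Evi1, a zinc finger transcription factor and a product of the Mecom locus. The cells were untreated, and each array read total RNA of 10000 unfractionated cells sorted for green fluorescence. Neither the promoter of the transgene nor the age of the animals was stated in the labels. They also do not state whether arrays of 1 group represent separate animals, and a p-value here reflects only variation between the samples as deposited, which may be technical.

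Splicing removes introns from pre-mRNA. The U1 particle recognises the 5' end of an intron, the U2 particle with U2AF recognises the branch site and the 3' end, and the U4/U6.U5 tri-snRNP then joins to form the catalytic spliceosome. SR proteins bind exons and recruit these particles. In human myeloid malignancies the genes for SF3B1, SRSF2 and U2AF1 are among the recurrently mutated splicing factors, which is why these 3 are given here whatever their values. The probe sets read the total signal of a gene, so splice isoforms were not measured.

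Promoter windows of 5 members on which the results turn are shown as sequence, credited to RefSeq (GRCm38.p6), each running from 250 bases before to 50 bases after an annotated transcription start. The 3 Sf3a genes encode the SF3A complex and each had a higher mean in Evi1 Tg, Srsf2 had the signal of WT 3 far above the other arrays, and Prpf39 had the lowest difference of all members. Capitals mark CCGGAA, which holds the GGAA core of the sequence that ETS factors bind, or its reverse complement. In Prpf39 they mark CACGTG, the E-box bound by MYC and related factors. GGAA outside CCGGAA was not marked. The windows lie at chr11:4160104-4160403, plus strand, chr10:80798485-80798784, plus strand, chr4:124714611-124714910, plus strand, chr11:116853045-116853344, minus strand, and chr12:65036084-65036383, plus strand, in the order printed.
Sf3a1: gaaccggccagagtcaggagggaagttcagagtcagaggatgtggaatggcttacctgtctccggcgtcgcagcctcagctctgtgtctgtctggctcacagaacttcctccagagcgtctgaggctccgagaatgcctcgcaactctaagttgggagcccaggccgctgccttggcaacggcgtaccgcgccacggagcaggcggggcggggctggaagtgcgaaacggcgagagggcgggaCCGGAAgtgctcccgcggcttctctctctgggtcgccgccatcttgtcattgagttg
Sf3a2: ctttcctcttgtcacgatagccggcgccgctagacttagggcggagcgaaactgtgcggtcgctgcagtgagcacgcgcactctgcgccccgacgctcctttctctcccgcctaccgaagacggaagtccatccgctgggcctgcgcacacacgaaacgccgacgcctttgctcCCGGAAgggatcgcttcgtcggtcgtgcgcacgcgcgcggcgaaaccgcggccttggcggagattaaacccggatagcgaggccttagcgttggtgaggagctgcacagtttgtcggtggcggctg
Sf3a3: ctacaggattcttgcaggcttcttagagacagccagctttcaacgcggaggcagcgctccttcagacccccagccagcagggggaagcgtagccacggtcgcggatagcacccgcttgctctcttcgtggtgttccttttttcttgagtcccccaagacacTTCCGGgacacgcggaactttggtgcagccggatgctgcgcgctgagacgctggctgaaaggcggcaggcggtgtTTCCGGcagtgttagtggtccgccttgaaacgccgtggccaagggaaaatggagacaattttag
Srsf2: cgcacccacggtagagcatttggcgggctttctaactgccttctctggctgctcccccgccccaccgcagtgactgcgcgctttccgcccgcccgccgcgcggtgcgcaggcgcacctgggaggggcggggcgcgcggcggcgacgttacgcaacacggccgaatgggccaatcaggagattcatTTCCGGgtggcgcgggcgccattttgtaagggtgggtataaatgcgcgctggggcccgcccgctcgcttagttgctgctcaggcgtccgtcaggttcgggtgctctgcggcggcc
Prpf39: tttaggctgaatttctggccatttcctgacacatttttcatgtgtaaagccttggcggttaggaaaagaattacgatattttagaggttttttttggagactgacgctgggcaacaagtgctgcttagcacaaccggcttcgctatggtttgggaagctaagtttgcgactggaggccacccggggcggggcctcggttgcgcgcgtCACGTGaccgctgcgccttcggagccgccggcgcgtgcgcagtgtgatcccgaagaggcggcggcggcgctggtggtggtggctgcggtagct

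The match began 7 bases before the start in Sf3a1 and 76 bases before it in Sf3a2. In Sf3a3 there were matches of the reverse complement 89 and 14 bases before the start, and in Srsf2 there was 1, 65 bases before it. CACGTG began 43 bases before the start of Prpf39. Of the 43 members, 37 had a window in the table, in 45 windows. CCGGAA, on either strand, was in 26 of these 45 windows (57.8%), against 14.9% of all 32851 windows and 29.9% of the 9456 windows of genes above the background signal defined below. CACGTG was in 8.9% of member windows, 7.2% of all windows and 10.7% of those of genes above background. For CCAAT these shares were 42.2%, 37.4% and 37.8%, and for TATAAA 6.7%, 13.6% and 6.8%. The share of TATAAA in member windows was thus close to that of genes above background, and that of CACGTG lay between the others. CCGGAA and CACGTG do not overlap each other as motifs, windows of 1 gene can overlap, and the motifs were chosen after the sequences were seen. A match is a description of the letters and does not show that a factor binds there.

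Each array gave 1 intensity per probe set on a linear scale, with array medians between 51.6 and 55.4. Background was taken as the 90th percentile of 63 measured genes listed as silent in blood cells, an intensity of 82.8. By that definition 7 of those genes lay above it. Their means reached 1367, so the list was not silent throughout. Of the 43 members 41 had a mean above background. The exceptions were Sf3b4 and Srsf12. By the mean over 6 arrays, all 10 listed myeloid genes, such as Ptprc, Cd33 and Spi1, lay above background. Of these 10 genes 4 had a higher mean in Evi1 Tg and 6 a lower one. Mpo had means of 117 in WT and 815 in Evi1 Tg, with 68.1 on its lowest array, and Meis1 had means of 739 and 1332. Above background were 0 of 8 measured genes of T and NK cells, 0 of 7 of B cells and 0 of 5 of erythroid cells. Of the megakaryocyte list 3 of 5 lay above it, and their summed intensity ran from 320 to 686 in WT and from 332 to 417 in Evi1 Tg. Of the stromal and endothelial list 2 of 9 did, with sums from 638 to 973 in WT and from 677 to 782 in Evi1 Tg. The part of these lists in the results below was not tested. Mecom read between 34.1 and 40.7 on the 6 arrays by the probe set used, below background in both groups, so the signal of the transgene does not check the labels, and directions rest on the labels. Pearson correlations between arrays across genes, which are not independent replicates, lay between 0.972 and 0.992. WT 3 correlated at 0.984 with WT 1 and 0.978 with WT 2, and at 0.982, 0.981 and 0.985 with Evi1 Tg 1, 2 and 3. Across all genes it was thus about as close to Evi1 Tg as to its own group. WT 1 and WT 2 correlated at 0.988, and pairs of Evi1 Tg arrays at 0.984 to 0.992.

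**Figure D1:**
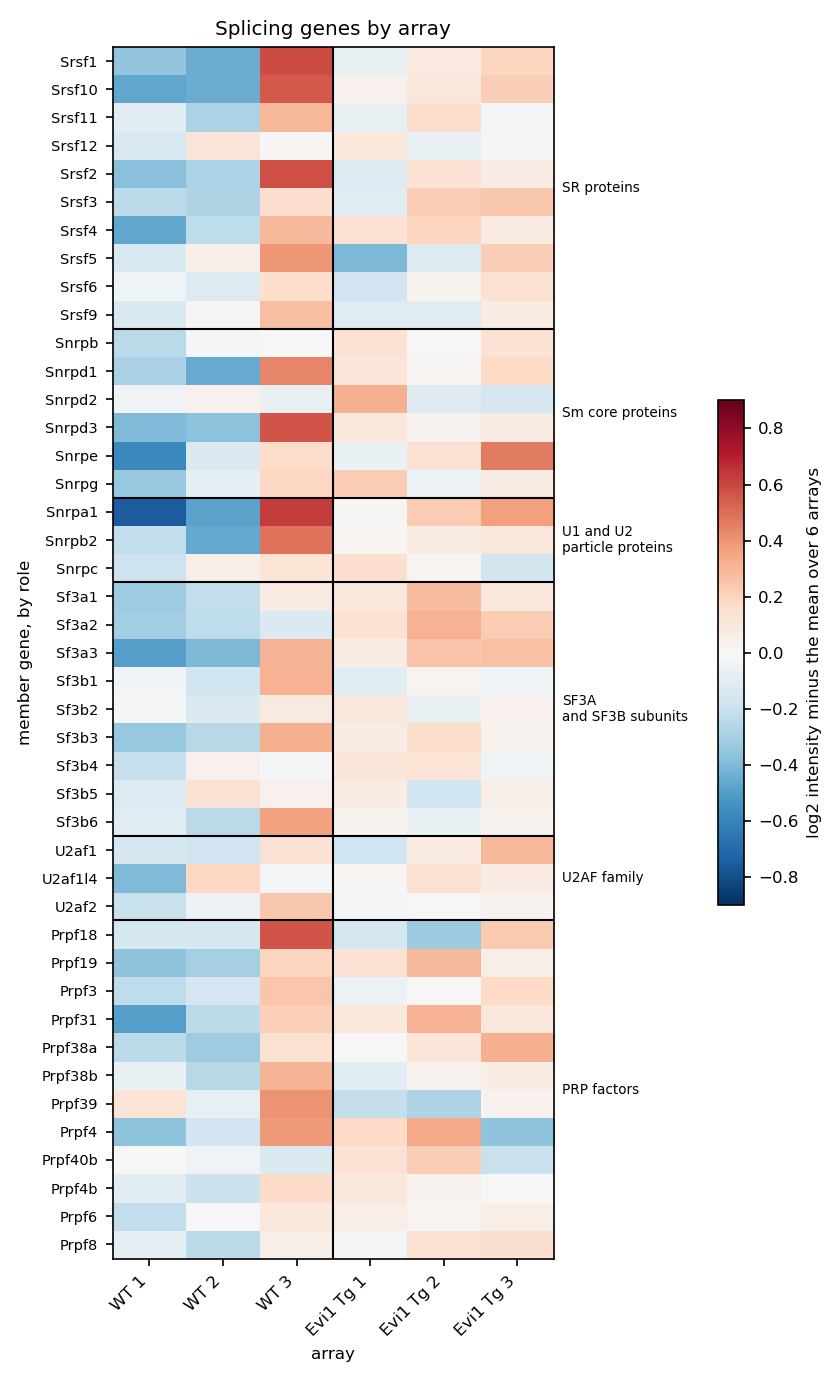
Colour shows the log2 intensity of each of the 43 splicing genes (rows, by role) on each of 6 arrays (columns), minus that gene's mean over the 6 arrays. WT 1 and WT 2 are mostly blue, WT 3 is mostly red and is the highest array for 24 genes, and the 3 Evi1 Tg arrays lie mostly between them.

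No member passed the test between Evi1 Tg and WT. Most members had a slightly higher mean signal in Evi1 Tg, 36 of 43 genes (32 with each array centred on its median, where Snrpc, U2af2, Prpf38b and Srsf6 lay just under 0), with a median difference of 0.12 on the log2 scale. The median of all 22180 genes was 0.012, and 53.5% of them lay above 0. Differences of the members ran from -0.30 for Prpf39 to 0.45 for Sf3a2, and 16 of them were within 0.1 of 0. By limma with Benjamini-Hochberg adjustment over all genes 0 members were higher and 0 lower, while 0.00902% of all genes were called higher and 0.104% lower. At an unadjusted limma p under 0.05, 2 members were higher and 0 lower, a share of 4.65% higher, beside 4.50% of all genes higher and 5.80% lower. Sf3a2 and Sf3a1 were the 2 members with all 3 Evi1 Tg arrays above all 3 WT arrays, again 4.65% of members against 7.08% of all genes. No member had the groups apart in the other direction, against 7.47% of all genes. The share of members called, or with separate groups, is thus near or under that of all genes. Of genes above background 18.2% had an unadjusted limma p under 0.05 in either direction. Groups were separate for 8.37% of them in the higher and 11.2% in the lower direction. The members' shares were under each of these. With 3 arrays per group the smallest two-sided p of an exact permutation test is 0.10, so it was not used for calls.

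The arrays of WT did not read alike for these genes. WT 3 was the highest of the 6 arrays for 24 of 43 members (55.8%), against 19.3% of all genes and 32.9% of genes above background. WT 1 was the lowest array for 23 members and WT 2 for 12, and WT 3 for 0. WT 1 or WT 2 was thus lowest for 81.4% of members, against 34.9% of all genes and 45.7% of genes above background. As a median over members, the deviation from a gene's mean over 6 arrays came to -0.22 for WT 1, -0.18 for WT 2 and 0.21 for WT 3, and to 0.042, 0.070 and 0.073 for Evi1 Tg 1, 2 and 3. By these medians WT 3 stood above all Evi1 Tg arrays, and the other WT arrays below them. WT 3 minus the mean of WT 1 and WT 2 had a median of 0.41 over the members, -0.018 over all genes and 0.12 over genes above background. The SD among WT arrays was larger than that among Evi1 Tg arrays for 36 of 43 members, against 58.3% of all genes.

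WT 3 was singled out from these same values. It was the highest WT array for 37 of 43 members, and leaving out the highest WT array always raises the difference. The results without WT 3, here and below, are therefore no separate support, and are given beside those with it. Without it the median difference of the members was 0.23, 40 of 43 lay above 0, and 3 were called higher, Sf3a3, Snrpa1 and Srsf10, which is 6.98% of members against 1.73% of all genes and 4.04% of genes above background. No member was called lower, against 0.780% of all genes. Without WT 1 the median was 0.030 and without WT 2 it was 0.065, each with 0 members called. The summed intensity of 30 measured genes of cell division and DNA replication followed a like order of arrays, at 16596 in WT 1, 15534 in WT 2 and 30783 in WT 3, and at 28388, 30343 and 30783 in Evi1 Tg 1, 2 and 3. Its median deviation in WT 3 (0.33) was within the range of the Evi1 Tg arrays (0.24 to 0.36), whereas that of the splicing genes in WT 3 lay above theirs. The summed intensity of the myeloid list was 10863 in WT 3, against 14735 and 15399 in WT 1 and WT 2 and 12949 to 15013 in Evi1 Tg. The part of either list in the splicing values was not tested. In such bulk samples, a change in the share of a kind of cell and a change in RNA per cell cannot be told apart.

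SR proteins carry an RNA recognition motif and a domain rich in arginine and serine. Of 11 listed SR protein genes 10 were measured, and Srsf7 had no probe set with a single symbol. Of the 10 measured members 8 had a mean difference above 0 (median 0.055), and 0 passed the test. WT 3 was the highest array for 8 of the 10. Srsf2, which binds exonic enhancers, read 3112, 3296 and 6019 in the WT arrays and 3718, 4422 and 4219 in the Evi1 Tg arrays. WT 3 was far above every other array and WT 1 and WT 2 were below all Evi1 Tg arrays, so the groups overlapped. The difference of the means was 0.056 (SE 0.25, n = 3 per group, limma adjusted p = 0.971), with a 95% interval from -0.53 to 0.64, and 0.36 without WT 3 (limma adjusted p = 0.154). It turned to -0.12 without WT 1 and to -0.075 without WT 2.

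Srsf10, a splicing repressor when dephosphorylated, had the same order of arrays. It read 138, 140 and 280 in the WT arrays and 197, 205 and 223 in the Evi1 Tg arrays. WT 3 was again above and the other WT arrays below every Evi1 Tg array. The difference was 0.24 (SE 0.27, limma adjusted p = 0.848, n = 3 per group) and 0.58 without WT 3, where it was called higher (SE 0.095, limma adjusted p = 0.0385). Srsf10 and Srsf1 were chosen for description after their values were seen. Srsf1, a factor of constitutive and alternative splicing, read 759, 715 and 1457 in the WT arrays and 930, 1028 and 1114 in the Evi1 Tg arrays, so that WT 3 was once more the highest array. The difference was 0.14. The other probe set of Srsf1 read 296, 223 and 371 in the WT arrays and 335, 381 and 383 in the Evi1 Tg arrays. By that probe set WT 3 lay within the Evi1 Tg range, and the difference was 0.33.

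Srsf3 and Srsf4 had the smallest p among SR proteins with a higher signal. Srsf3, which also takes part in mRNA export, read 252, 247 and 330 in the WT arrays and 277, 348 and 352 in the Evi1 Tg arrays. WT 3 lay within the Evi1 Tg range. The difference was 0.24 (SE 0.15, limma adjusted p = 0.671). Srsf4, which has a long arginine and serine domain, read 224, 265 and 380 in the WT arrays and 339, 354 and 327 in the Evi1 Tg arrays, with WT 3 above them all. The difference was 0.26 (SE 0.18, limma adjusted p = 0.719), with 0.10 without WT 1 and 0.48 without WT 3 (limma adjusted p = 0.0784). Srsf5 had a lower mean in Evi1 Tg, with 575, 653 and 830 in the WT arrays and 478, 582 and 738 in the Evi1 Tg arrays. These ranges overlapped widely, and the difference was -0.20 (SE 0.19, limma adjusted p = 0.819). Omitting Evi1 Tg 3 gave -0.36, omitting Evi1 Tg 1 gave -0.049, and omitting WT 3 gave -0.055. Srsf12 read from 33.7 to 40.4, under the background on all arrays. Srsf9 had a difference of -0.10, and those of Srsf6 (0.0031) and Srsf11 (0.054) were near 0.

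**Figure D2:**
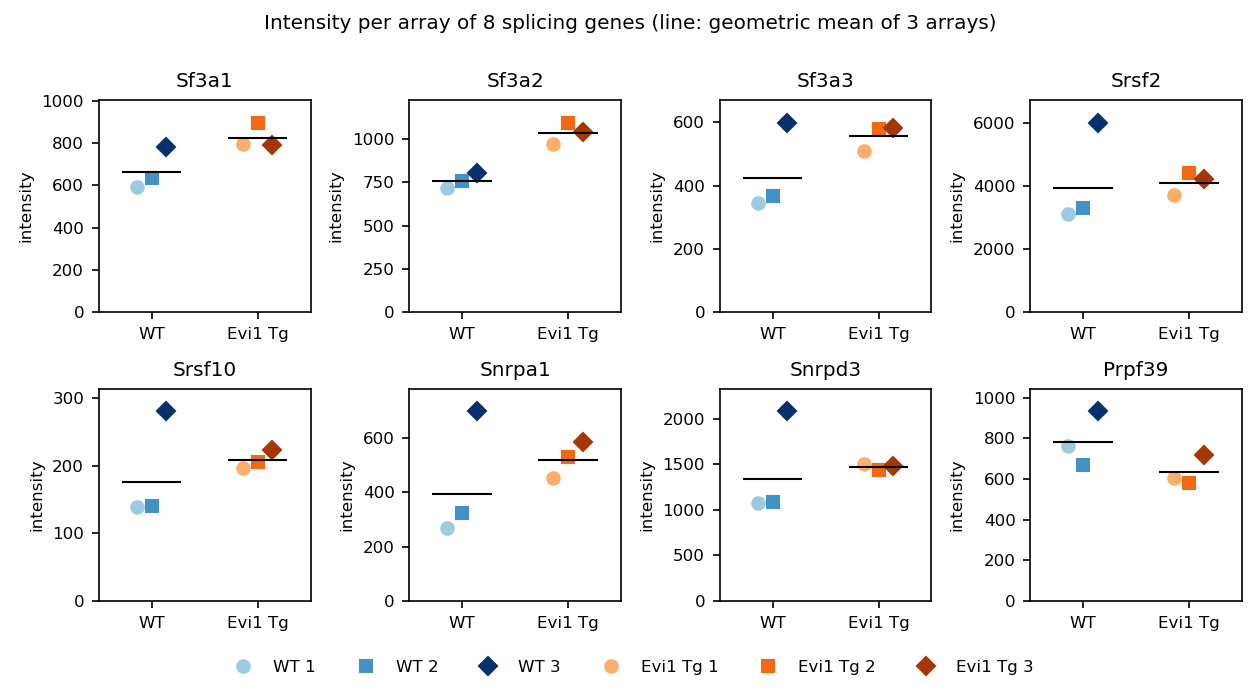
Points give the intensity (linear axis from 0) of 8 splicing genes on each array, WT at the left and Evi1 Tg at the right of each panel, and lines the geometric mean of the 3 arrays of a group. In Sf3a1 and Sf3a2 all Evi1 Tg points lie above all WT points, while in Srsf2, Srsf10, Snrpa1, Snrpd3 and Sf3a3 the WT 3 point is the highest of the 6.

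The Sm proteins form the ring that encloses the snRNA of each major particle except U6. All 6 of 6 Sm genes with a probe set of their own had a mean difference above 0 (median 0.17), and 0 passed the test. Snrpf, also an Sm gene, had none. The probe set listed with 4933408J17Rik, Ccdc38 and Snrpf had a difference of -0.12, with overlapping groups. Snrpe read 163, 223 and 275 in the WT arrays and 233, 268 and 337 in the Evi1 Tg arrays. WT 1 was the lowest and Evi1 Tg 3 the highest array, with the groups overlapping. The difference was 0.36 (SE 0.21, limma adjusted p = 0.647), with 0.16 without WT 1, 0.22 without Evi1 Tg 3 and 0.54 without WT 3. Snrpb, which encodes SmB, had 298, 347 and 352 in the WT arrays and 386, 351.5 and 387 in the Evi1 Tg arrays. WT 3 and Evi1 Tg 2 differed by less than 1 unit, so the groups overlapped by that margin. The difference was 0.18 (SE 0.10, limma adjusted p = 0.610). Snrpd3 read 1071, 1087 and 2080 in the WT arrays and 1501, 1443 and 1480 in the Evi1 Tg arrays. The Evi1 Tg arrays were close together (SD 0.029 on the log2 scale), and the WT arrays were not (SD 0.55). The difference was 0.14 (limma adjusted p = 0.923) and 0.45 without WT 3 (limma adjusted p = 0.0502), and -0.028 without WT 1. Snrpg had a difference of 0.16 and Snrpd2 one of 0.034.

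Of the proteins specific to the U1 and U2 particles, 3 were measured by probe sets of their own, each with a difference above 0 (median 0.13). Snrpa1, the U2 A' protein, read 269, 324 and 697 in the WT arrays and 454, 531 and 583 in the Evi1 Tg arrays. WT 3 was highest and WT 1 and WT 2 lowest, a spread among WT arrays of 0.73 on the log2 scale (SD). The difference was 0.40 (SE 0.33, limma adjusted p = 0.781), and without WT 3 it was 0.82 and was called higher (SE 0.14, limma adjusted p = 0.0435). It was 0.13 without WT 1 (limma adjusted p = 0.968) and 0.26 without WT 2 (limma adjusted p = 0.919). Snrpb2, the U2 B'' partner of that protein, read 181, 153 and 295 in the WT arrays and 214, 221 and 226 in the Evi1 Tg arrays, again with WT 3 above and the other WT arrays below every Evi1 Tg array. Its difference was 0.13 (limma adjusted p = 0.920). Snrpc, the U1 protein that stabilises pairing with the 5' splice site, read 135, 160 and 168 in the WT arrays and 172, 157 and 137 in the Evi1 Tg arrays. The ranges nearly coincided, and the difference was 0.0096 (SE 0.12, 95% interval -0.28 to 0.30).

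SF3A and SF3B are the complexes that bind U2 at the branch site. Of their 9 members 6 had a mean difference above 0 (median 0.12), and 0 passed the test. Of the 9, 2 had all Evi1 Tg arrays above all WT arrays (22.2%), against 7.08% of all genes and 8.37% of genes above background. The 3 SF3A subunits each had a mean difference above 0. Sf3a2 read 715, 757 and 807 in the WT arrays and 970, 1096 and 1039 in the Evi1 Tg arrays. All Evi1 Tg arrays lay above all WT arrays, with a gap that exceeded the range of WT. The difference was 0.45, which is 1.36-fold (SE 0.089, n = 3 per group, 95% interval 0.24 to 0.66, limma adjusted p = 0.171). Leaving out each array in turn gave differences of Sf3a2 from 0.40 to 0.49. Another probe set, listed with both Sf3a2 and its neighbour Plekhj1, read 433, 560 and 529 in the WT arrays and 522, 676 and 728 in the Evi1 Tg arrays, with overlapping groups and a difference of 0.33.

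Sf3a1, the subunit that also contacts U1, read 593, 636 and 780 in the WT arrays and 794, 897 and 793 in the Evi1 Tg arrays. The groups were separate by a narrow margin between WT 3 and Evi1 Tg 3. The difference was 0.31 (SE 0.12, 95% interval 0.025 to 0.60, limma adjusted p = 0.441). Sf3a3 read 345, 367 and 600 in the WT arrays and 510, 580 and 583 in the Evi1 Tg arrays. WT 3 was above all Evi1 Tg arrays here. The difference was 0.39 (SE 0.21, limma adjusted p = 0.593), and without WT 3 it was 0.64 and was called higher (SE 0.10, limma adjusted p = 0.0365). Without WT 1 the differences were 0.23 for Sf3a1 and 0.25 for Sf3a3.

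The SF3B subunits gave smaller differences. Sf3b1, the subunit that clamps the branch site duplex, read 1876, 1689 and 2364 in the WT arrays and 1788, 1942 and 1857 in the Evi1 Tg arrays. The Evi1 Tg arrays fell within the WT range. The difference was -0.072 (SE 0.13, 95% interval -0.38 to 0.24, limma adjusted p = 0.922), and 0.064 without WT 3. Sf3b3 had a difference of 0.17 and 0.33 by its other, dimmer probe set, Sf3b2 0.048, Sf3b5 -0.043 and Sf3b6 -0.0046. Sf3b4 read 42.3 to 53.0, under the background on all arrays.

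U2AF binds the 3' end of the intron, its large subunit (U2af2) the pyrimidine tract and its small subunit (U2af1) the terminal dinucleotide. All 3 members had a difference above 0, and none passed. U2af1 read 405, 397 and 492 in the WT arrays and 396, 472 and 553 in the Evi1 Tg arrays, with overlapping ranges. The difference was 0.13 (SE 0.15, 95% interval -0.22 to 0.48, limma adjusted p = 0.859). It ran from 0.0099 without Evi1 Tg 3 to 0.25 without Evi1 Tg 1, and was 0.23 without WT 3. U2af2 read 274, 303 and 372 in the WT arrays and 312, 316 and 322 in the Evi1 Tg arrays. WT 1 and WT 2 were below and WT 3 above the narrow Evi1 Tg range, and the difference was 0.012 (SE 0.12), or -0.0019 with each array centred on its median. U2af1l4, a relative of the small subunit, had a difference of 0.15 (SE 0.15) and of 0.037 by its other probe set.

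The PRP factors act across the assembly of the spliceosome. Of 12 measured members 10 had a mean difference above 0 (median 0.10), and 0 passed the test. Prpf8, the scaffold of the catalytic centre, read 1951, 1763 and 2146 in the WT arrays and 2042, 2273 and 2294 in the Evi1 Tg arrays. WT 3 lay within the Evi1 Tg range. The difference was 0.18 (SE 0.10, 95% interval -0.066 to 0.42, limma adjusted p = 0.639). Prpf31, which holds the tri-snRNP together at U4, read 636, 762 and 1039 in the WT arrays and 952, 1116 and 962 in the Evi1 Tg arrays. WT 3 again lay among the Evi1 Tg arrays, and the difference was 0.34 (limma adjusted p = 0.593). Prpf19, a ubiquitin ligase of the activation step, read 571, 596 and 837 in the WT arrays and 801, 898 and 760 in the Evi1 Tg arrays, with the same overlap by WT 3. Its difference was 0.31 (SE 0.16, limma adjusted p = 0.574), and that of Prpf38a, a factor of the pre-catalytic complex, was 0.29 (SE 0.15, limma adjusted p = 0.573).

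Prpf39, a U1-associated factor, went the other way. It read 764, 666 and 932 in the WT arrays and 603, 582 and 720 in the Evi1 Tg arrays. Evi1 Tg 1 and 2 lay below all WT arrays, and Evi1 Tg 3 lay between WT 1 and WT 2. The difference was -0.30 (SE 0.15, 95% interval -0.65 to 0.042, limma adjusted p = 0.549), and -0.17 without WT 3. Prpf18, a factor of the second catalytic step that was chosen for description after its values were seen, had -0.17 (SE 0.23), and 0.069 without WT 3, whose 261 was above the other 5 arrays (141 to 207). Prpf40b, another U1-associated factor, had a difference of 0.11 and lay near the background, from 75.6 to 101.

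**Figure D3:**
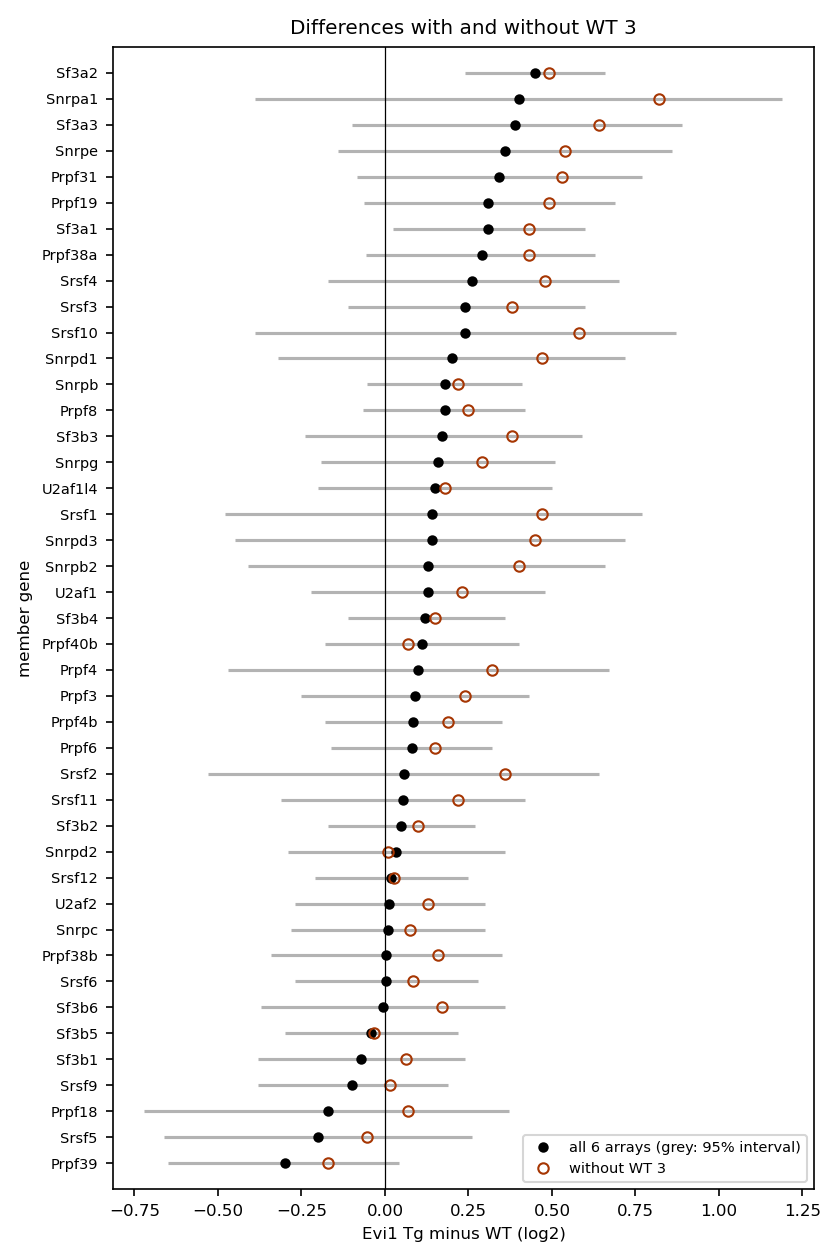
Black points give the Evi1 Tg minus WT difference (log2) of each of the 43 genes over 6 arrays with its 95% interval from limma, not adjusted for the number of genes, and open points the difference without WT 3. The intervals of Sf3a2 and Sf3a1 lie above 0 and the other 41 cross it, and most open points lie to the right of the black ones.

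Of the 43 members 6 had another probe set with a single symbol, and the differences had the same sign in 6 of 6. The other probe sets of Sf3b2, Sf3b3, Srsf6 and U2af1l4 had group means under the background of 82.8, and the difference of Srsf6 by its main probe set was near 0 (0.0031), so the signs carry little for these 4. The other genes of the pathway were read from 7 lists with 123 entries, of which 111 genes were measured. By limma 0 of the 111 were called higher and 0 lower, and 81 had a difference above 0 (median 0.12). At an unadjusted limma p under 0.05, 11 were higher and 2 lower, together 11.7%, against 10.3% of all genes and 18.2% of genes above background. In the higher direction alone the background was 4.50% of all genes, and 732 of 9357 genes above background. WT 3 was the highest array for 60 of the 111 (54.1%), close to its share of members. Without WT 3 the median was 0.22, and 7 were called higher (6.31%) and 0 lower, beside 1.73% of all genes and 4.04% of genes above background called higher.

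Factors that load Sm proteins onto snRNA had a median of 0.22, with 13 of 14 above 0. Only 10 of the 14 had a mean above background, and the lowest mean was 39.8. Prmt5, the methyltransferase that modifies Sm proteins, read 738, 867 and 1109 in the WT arrays and 1367, 1726 and 1525 in the Evi1 Tg arrays. All Evi1 Tg arrays lay above all WT arrays. The difference was 0.78 (SE 0.16, limma adjusted p = 0.181). Its partner Wdr77 had 0.37 (SE 0.17), with overlapping groups. In the list of other snRNP and LSM proteins 15 of 20 lay above 0, with Lsm7 at 0.43 (SE 0.11, limma adjusted p = 0.255) and Lsm2 at 0.60 (SE 0.19, limma adjusted p = 0.350). LSM proteins form the ring on U6. Among other assembly and catalytic factors 20 of 27 lay above 0, with the helicase Ddx39b at 0.23 and the branch point binding protein Sf1 at 0.17.

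Of the hnRNP proteins, which bind nascent RNA and often oppose SR proteins, 17 of 23 lay above 0 (median 0.15), with Hnrnpl at 0.35 and Hnrnpul1 at 0.19. Of 3 measured genes of the exon junction complex and its partners 3 lay above 0, Rbm8a at 0.30 and Rnps1 at 0.43. Rbm8a lay near the background, with 73.8, 83.3 and 81.6 in the WT arrays and 89, 107 and 98.8 in the Evi1 Tg arrays. SR protein kinases and SR-related coactivators were divided, with 11 of 19 above 0 and a median of 0.025. Acin1 had 0.32 (SE 0.10, limma adjusted p = 0.315). Clk4, a kinase that phosphorylates SR proteins, read 645, 560 and 669 in the WT arrays and 462, 459 and 544 in the Evi1 Tg arrays. All its Evi1 Tg arrays were below all WT arrays. The difference was -0.36 (SE 0.11, limma adjusted p = 0.325). Of 5 measured proteins of the minor spliceosome, which removes the rare class of U12-type introns, 2 lay above 0 (median -0.13). Rnpc3 was at -0.31 with separate groups (SE 0.13, limma adjusted p = 0.485), and Zmat5 at -0.21.

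**Figure D4:**
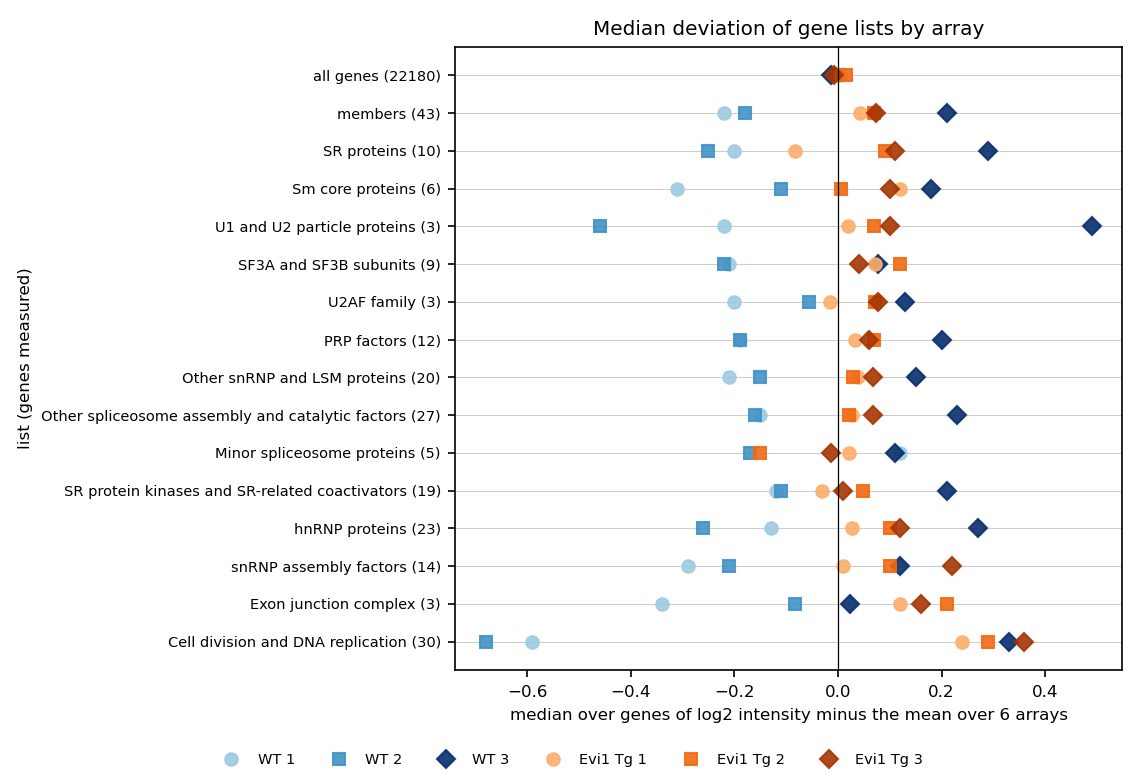
Each point is the median, over the genes of a list, of the log2 intensity minus the gene's mean over 6 arrays, for 1 array. The medians of all 22180 genes lie close to 0, WT 1 (-0.22) and WT 2 (-0.18) lie below the Evi1 Tg arrays for the 43 members, and WT 3 (0.21) lies above them, whereas for cell division and DNA replication WT 3 (0.33) lies within the Evi1 Tg range.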

How the data were processed

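Per the labels' protocols, biotinylated cDNA was prepared with a GeneChip WT PLUS kit. The deposited table, made by the authors, holds an intensity per probe set and array. Values between 17.8 and 14719 show that the scale is linear. How the authors corrected background, normalized and summarised probes was not stated in the labels. Array medians were close, so normalization before deposit is likely and would remove any shift common to most genes. Differences are compressed near background.

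The platform annotation gave 23521 of 34351 probe sets a single symbol, 1814 several and 9016 none, and only the first kind was used. A gene was represented by its probe set of highest mean over 6 arrays (22180 genes), as log2 intensity without pseudocount or filter. limma 3.58.1 (lmFit, eBayes) under R 4.3.3 was fitted to Evi1 Tg and WT, n = 3 each, p-values were adjusted by Benjamini-Hochberg across 22180 genes, and a call required an adjusted p under 0.05. The fit was tested on simulated data. Intervals are 95%, from limma's moderated SE. Listed symbols were matched through RefSeq synonyms (GRCm38.p6), and matplotlib 3.10.9 drew the figures.

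Members and lists were chosen with earlier results of these data known. Named members were, per role group, the 3 of smallest p and those of highest and lowest mean, plus Sf3b1, Srsf2, U2af1 and Prpf8, and in each pathway list the 2 of smallest p. Any other member was picked for description after its values were seen. Settings varied were the normalization (quantile, median centring), the filter on dim genes, the variance model (trend and robust), array weights, a replicate block, averaging of probe sets, a pseudocount of 16, and the omission of each array. The number of arrays limits the precision.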

Additional observations from a re-analysis of the deposited data

Results flagged for a closer look

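Probe sets listed with several symbols were not used in the gene table. In 2 of those that hold a symbol fitting the rule, all 3 Evi1 Tg arrays lay above all 3 WT arrays. Among all 22180 genes 7.08% had such separate groups. The others with such a symbol had overlapping groups. These were listed with Plekhj1 and Sf3a2 (difference 0.33), Gpr141 and Srsf10 (0.19), and 4933408J17Rik, Ccdc38 and Snrpf (-0.12). The probe set listed with Snrpa, Gm21559 and Gm5161 read 283, 307 and 243 in the WT arrays and 315, 337 and 335 in the Evi1 Tg arrays, which differ by 0.25 on the log2 scale (SE 0.10, with a limma p of 0.533 adjusted across probe sets). Snrpa encodes the U1 A protein, and the signal cannot be assigned to 1 of the 3 genes. The probe set listed with U2af1l4 and Igflr1 read 58.5, 62.9 and 61.3 in the WT arrays and 65.4, 81.7 and 65.6 in the Evi1 Tg arrays, which differ by 0.21 (SE 0.11, limma p of 0.636 adjusted likewise), with all values under the background intensity of 82.8.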

How the results depend on the processing

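Counts over all genes depended on the setting. Against 2 higher and 23 lower, 6 were higher with dim genes left out and 6 with trend and robust settings, array weights gave 32 higher and 82 lower, and both the pseudocount of 16 and the replicate block gave 0 higher and 9 lower. Without 1 array the counts ran from 0 to 383 higher and from 2 to 173 lower, the highest of both without WT 3. The number of members called was 0 in each alternative but 1, with 3 higher without WT 3 (range 0 to 3), and the members' median ran from 0.030 without WT 1 to 0.23 without WT 3. Of 198 values of the 25 named members under the 8 settings that kept all arrays, 196 kept their direction and side of the threshold, and median centring turned Snrpc to -0.0040 and U2af2 to -0.0019. Correlations of same-numbered deviations were 0.19, -0.18 and 0.061, and those of other pairs ran from -0.23 to 0.12. Deviations within a group of 3 sum to 0, so these values cannot settle whether replicate numbers pair the samples. The replicate block called 0 members.

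Without 1 array, 15 of 150 values of named members changed sign. The ranges of those genes were -0.18 to 0.064 for Sf3b1, -0.071 to 0.40 for Snrpb2, -0.084 to 0.095 for Snrpc, -0.028 to 0.45 for Snrpd3, -0.054 to 0.077 for Srsf12, -0.12 to 0.36 for Srsf2, -0.0078 to 0.28 for U2af1l4 and -0.086 to 0.13 for U2af2. Leaving out 1 array moved the difference by over 1.5 times, or turned its sign, for 22 of the 25 named members, the exceptions being Sf3a1, Sf3a2 and Prpf38a, and WT 3 alone did so for 17. Besides the genes above and those with such values in the report, the ranges were 0.21 to 0.49 for Prpf19, 0.10 to 0.25 for Prpf8, -0.42 to -0.17 for Prpf39, 0.023 to 0.23 for Prpf40b, 0.050 to 0.17 for Sf3b4, 0.10 to 0.22 for Snrpb, 0.030 to 0.29 for Snrpg and 0.17 to 0.38 for Srsf3. The cause was not tested. With 2 arrays left in a group, fewer samples enter the fit.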
